A study of Homo sapiens with 32 samples.

Results

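Total mRNA of MDA-MB-231 control cells was compared with that of MCF10A control cells, both kept in normoxia without PP242, in 4 of the 32 libraries of the study. The members were chosen by the line, treatment and fraction in the sample labels, which gave 2 biological replicates of each line. Per the study's methods, control cells received DMSO, the solvent of PP242. The study asked how low oxygen and the mTOR inhibitor PP242 change mRNA levels and the loading of mRNA on ribosomes in both lines, and the total mRNA of the controls shows where the lines stood without either. Hypoxic and PP242-treated libraries entered the test through a shared estimate of the spread between replicates and are otherwise used for ranges over each line, and the normoxic control polysomal libraries (mRNA carrying several ribosomes) gave a second look at the same genes.

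MCF10A is an immortalised, non-tumourigenic breast epithelial line, and MDA-MB-231 is a triple-negative breast carcinoma line from a metastasis. Both grew in DMEM with 10% foetal bovine serum. The MCF10A medium also held EGF at 20 ng/mL, hydrocortisone at 0.5 µg/mL, cholera toxin at 100 ng/mL and insulin at 10 µg/mL. Library barcodes began with O throughout MCF10A and with U throughout MDA-MB-231, and each line was deposited in a table of its own. Line, medium and sequencing set therefore cannot be told apart, and each line is a single line rather than a sample of normal or malignant cells. The libraries are of bulk RNA, in which fewer cells expressing a gene and less RNA per cell cannot be told apart.

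The MCF10A libraries held 35547567 and 43854886 counts and the MDA-MB-231 libraries 27262404 and 18340916. Levels are given as CPM, counts per 1000000 protein-coding counts of the library after TMM scaling,, always in the order MCF10A replicates 1 and 2, then MDA-MB-231 replicates 1 and 2. A limit of 3 counts corresponded to 0.0919, 0.0747, 0.0934 and 0.143 CPM in these libraries, so that values below these rest on counts too few to interpret. The 100 most abundant genes took 31.1% and 30.2% of the MCF10A counts and 20.7% and 21.9% of the MDA-MB-231 counts.

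MDA-MB-231 replicate 2 stood apart. It had the lowest total of the 32 libraries but the most protein-coding genes with a count, 17923, against 15301 in the other MDA-MB-231 library and 14445 and 14489 in MCF10A. Of 1396 protein-coding genes at 0 counts in the 13 MDA-MB-231 libraries with fewer detected genes, it held counts for 780, which came to 100.4 CPM in all and to at most 0.809 CPM for any gene. Values under 1 CPM in this library are read with that in mind, and results that change without it are given both ways.

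**Figure D1:**
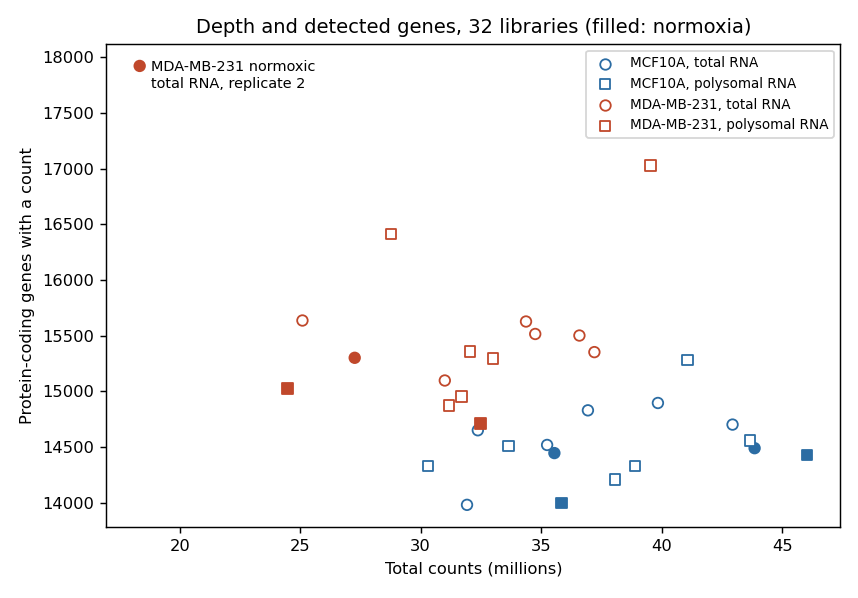
Total counts per library in units of 1000000 (x axis) against the number of protein-coding genes with at least 1 count (y axis) in the 32 libraries, coloured by line, with circles for total and squares for polysomal RNA and filled symbols for normoxic controls. MDA-MB-231 normoxic total replicate 2 sits at the top left, with the lowest total and 17923 detected genes.

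Breast ducts are lined by luminal cells, which make the keratins KRT8, KRT18 and KRT19, above a basal layer marked by KRT5, KRT14 and the transcription factor TP63. Epithelial cells hold together through E-cadherin (CDH1) and related adhesion proteins, and the programme named epithelial-mesenchymal transition replaces these by mesenchymal proteins such as vimentin and N-cadherin under factors of the ZEB, SNAI and TWIST families. MDA-MB-231 is widely used as a mesenchymal-like carcinoma line, and MCF10A as a basal-like epithelial one.

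The main basal keratins were read in MCF10A and were near the floor or far lower in MDA-MB-231. KRT5 stood at 2095, 1407, 0 and 0.238 CPM, a log2 difference (MDA-MB-231 minus MCF10A) of -14.08 (SE 0.82, adjusted p = 5.05e-10 in edgeR's quasi-likelihood test). KRT14, its dimer partner, stood at 882.2, 541.8, 0.436 and 0.190 CPM and KRT17 at 112.3, 57.3, 3.99 and 0.809 CPM. Neither gene overlapped between the lines, as was so for 80.7% of all genes tested, and over all 16 libraries of each line KRT5 ran from 1407 to 3838 CPM in MCF10A and from 0 to 0.238 CPM in MDA-MB-231. Of 12 keratins listed as basal or of stratified epithelia, 9 passed the filter on low counts. Of these, 7 were lower in MDA-MB-231 and 1, KRT15 (1.59, 1.82, 5.17 and 4.66 CPM), was higher, with a median log2 difference of -6.85. Of the 12, 5 were at 1 CPM or more in both MCF10A libraries and in neither MDA-MB-231 library. KRT5 and KRT6A, at 5 and 3 counts in MDA-MB-231, passed the filter through MCF10A. The filter fixed the direction of such genes, so nothing is read from this count. Over all 14298 protein-coding genes tested, 40.7% passed an adjusted p of 0.05, 20.3% as higher and 20.5% as lower in MDA-MB-231, with a median of -0.03. KRT6A, KRT16 and the hair keratins KRT34 and KRT83 were the other listed members that were lower. KRT6C did not pass the test, and KRT6B, KRT23 and KRT75 were too low to test. Reads of near-identical keratins (KRT6A and KRT6B, KRT81 and KRT86) were divided between them by an estimate and are less certain than the rest.

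The list of simple keratins, which form the filaments of single-layered epithelia, divided. It also held the hair keratins KRT81 and KRT86. KRT81 (8282, 7868, 64.8 and 38.2 CPM, log2 difference -7.29), KRT7 (6005, 6521, 123.3 and 99.97 CPM, -5.81) and KRT86 (-4.02) were lower in MDA-MB-231. KRT19 went the other way, from 0.0613 and 0.0498 to 124.1 and 148.0 CPM (11.18, SE 0.64, adjusted p = 3.34e-11). KRT8 (164.1, 156.2, 334.6 and 302.9 CPM) passed at an adjusted p of 0.0383 but lost the call without either MCF10A replicate or without MDA-MB-231 replicate 2. KRT18 was at 177.3, 196.2, 302.7 and 339.9 CPM (adjusted p = 0.105) and KRT80 at a log2 difference of -0.49 (adjusted p = 0.480), while KRT20 was too low to test.

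**Figure D2:**
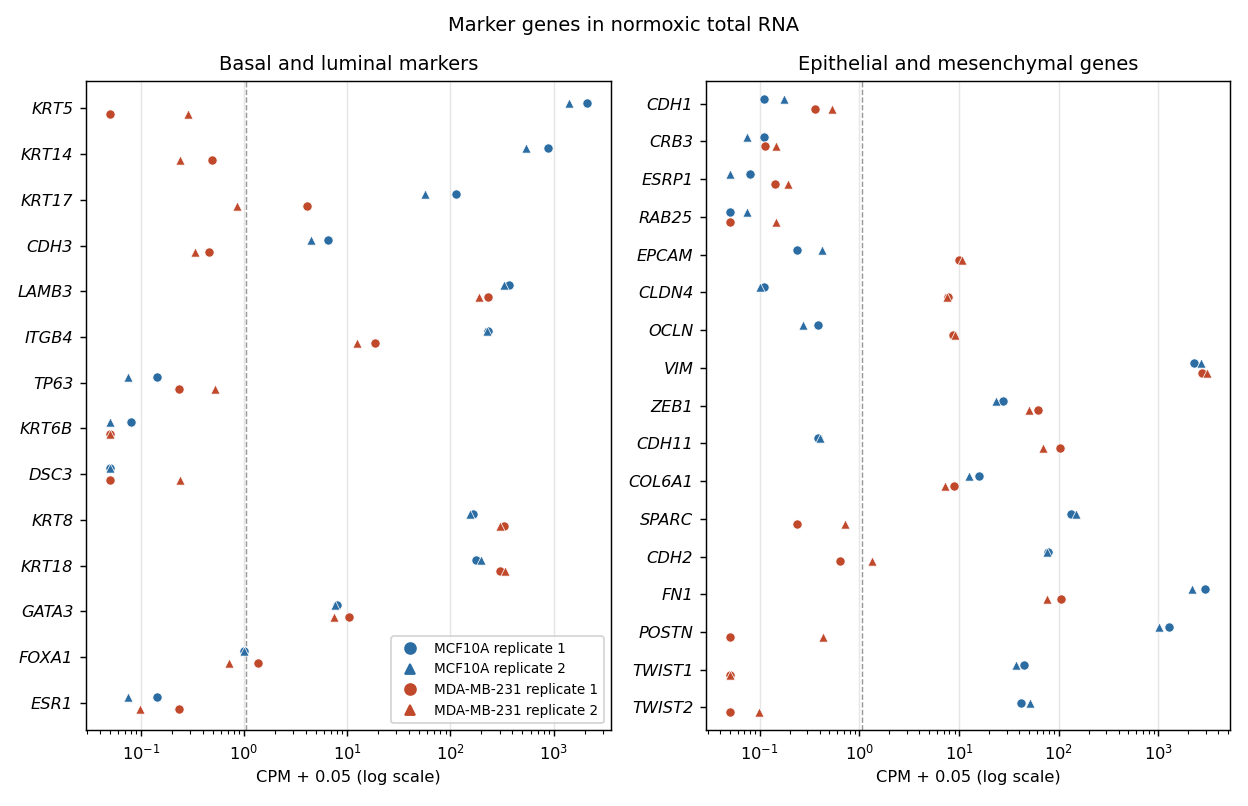
Level of basal and luminal markers (left) and of epithelial and mesenchymal markers (right) in the 4 libraries, as CPM plus 0.05 on a log axis, with 1 point per library coloured by line and a dashed line at 1 CPM. KRT5 and KRT14 separate the lines by more than the luminal markers shown, which are KRT8, KRT18, GATA3, FOXA1 and ESR1. The luminal keratin KRT19, not shown, was at 0.0613 and 0.0498 CPM in MCF10A and at 124.1 and 148.0 CPM in MDA-MB-231. CDH1, CRB3, ESRP1 and RAB25 lie under 1 CPM in all 4 libraries.

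Several defining epithelial markers were at or near the floor in the MCF10A libraries, which goes against their label, while others, such as KRT7, JUP, SPINT1 and SERPINB5, were read well above it. CDH1 was at 0.0613, 0.125, 0.311 and 0.476 CPM (log2 difference 1.98, adjusted p = 0.0621), and none of the 16 MCF10A libraries passed 0.424 CPM. The splicing factor ESRP1, the polarity gene CRB3 and the trafficking gene RAB25 were at most at 0.143 CPM in each of the 4 libraries. TP63 was at 0.0919, 0.0249, 0.187 and 0.476 CPM and no higher than 0.265 CPM in any MCF10A library, and the desmosomal cadherin DSC3 was at 0 in both MCF10A libraries. MCF10A thus held KRT5, KRT14, KRT17, LAMB3 (367.1, 329.6, 233.1 and 187.8 CPM) and ITGB4 (231.6, 226.5, 18.8 and 12.3 CPM), but was at or near 0 for TP63, KRT6B, DSC3 and the epithelial cadherin. EPCAM, an epithelial adhesion protein, was at 0.184, 0.374, 9.87 and 10.7 CPM, and its ranges over the 16 libraries of each line, 0.119 to 0.525 and 8.67 to 16.9 CPM, did not meet.

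Mesenchymal genes did not separate the lines in a single direction. Vimentin (VIM) was at 2269, 2691, 2736 and 3041 CPM, a log2 difference of 0.22 (SE 0.36, adjusted p = 0.665). The transcription factor TWIST1 was at 44.9 and 37.1 CPM in MCF10A and at 0 counts in both MDA-MB-231 libraries, which made it at least 719-fold lower there against a floor of 3 counts over the line. Its relative TWIST2 (41.5, 51.5, 0 and 0.0476 CPM) rested on 1 count in MDA-MB-231, a ratio of 2499 with a 95% counting interval of 448 to 98735. FOXC2 (21.8, 25.6, 0 and 0.0951 CPM) had 2 counts there, a ratio of 635 (175 to 5246). Of the 12 factors listed that drive the mesenchymal programme, 10 were tested. TWIST1, TWIST2, FOXC2, TCF4, TCF3 and SNAI2 were lower in MDA-MB-231 and PRRX1 (0.0613, 0.0498, 1.81 and 1.47 CPM) was higher. SNAI1 (0.736, 1.096, 0.529 and 0.761 CPM), ZEB1 (27.6, 23.2, 62.1 and 49.9 CPM) and ZEB2 (19.03, 17.98, 9.72 and 10.7 CPM) did not pass the test, and GSC and SNAI3 were too low for it. Over the 16 libraries of each line, ZEB1 ran from 5.35 to 37.4 CPM in MCF10A and from 38.5 to 79.1 CPM in MDA-MB-231. These ranges, which include hypoxic and PP242-treated libraries, did not meet. TCF4 lost its call in at least 1 of the fits that left out a library.

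Matrix and cytoskeletal genes of the mesenchymal list were more often lower than higher in MDA-MB-231, 17 against 9 of 32 tested (33 listed), with a median of -1.09. The shares over all genes tested were 20.5% lower and 20.3% higher. POSTN, which encodes the matrix protein periostin, was at 1277, 1016, 0 and 0.380 CPM, the proteoglycan DCN at 107.6, 75.8, 0.0311 and 0.476 CPM, the matrix glycoprotein SPARC at 132.2, 147.3, 0.187 and 0.666 CPM, and TGFBI, a TGF-beta-induced matrix protein, at 10126, 8238, 34.5 and 20.6 CPM. All 4 were high in both MCF10A libraries and near the floor or far lower in both MDA-MB-231 libraries. In the opposite direction COL5A1, a fibrillar collagen chain, was at 0.215, 0.125, 53.5 and 39.5 CPM and the mesenchymal cadherin CDH11 at 0.337, 0.349, 101.8 and 69.7 CPM, log2 differences of 8.10 and 7.95. COL3A1 and COL6A2 were also called higher in MDA-MB-231 but stayed under 2 CPM there. The count of 9 higher members fell to 5 without either MCF10A replicate, and the count of 17 lower members to 12 when library totals replaced the TMM scaling.

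Luminal genes divided. Of 17 tested (20 listed), 7 were higher and 4 lower in MDA-MB-231, with a median of 0.99. The secreted disulphide isomerase AGR2 was at 0, 0, 9.905 and 4.42 CPM (at least 188-fold) and the ETS factor SPDEF at 0, 0.0249, 15.3 and 17.9 CPM (ratio 1188, interval 213 to 46960). Of the receptors that define triple-negative tumours, ESR1 was at 0.0919, 0.0249, 0.187 and 0.0476 CPM, PGR at 0, 0, 0.311 and 0.523 CPM, and ERBB2 at 115.7, 140.1, 32.9 and 28.8 CPM. ESR1 thus lay at or near the floor in all 4 libraries. PGR stayed under 1 CPM but was called higher in MDA-MB-231 (at least 9.59-fold, on 21 counts against 0). PGR passed the filter on low counts through MDA-MB-231, which fixed its direction, so nothing is read from that call. ERBB2 was lower in MDA-MB-231 (log2 difference -2.05, SE 0.25, adjusted p = 9.78e-07). The mucin MUC1 fell from 11.4 and 11.1 to 0.187 and 0.0951 CPM. Without 1 library the higher count ranged from 4 (without MCF10A replicate 2) to 6, and the lower count was 2 without MCF10A replicate 1 or without either MDA-MB-231 replicate. Library totals in place of TMM scaling gave 10 higher and 2 lower. Of the 50 genes of the PAM50 subtype set, all tested, 14 were higher and 15 lower, a median of 0.23, and the higher count fell to 8 without MCF10A replicate 2 and to 9 without MCF10A replicate 1 or MDA-MB-231 replicate 2. The 4-library fit gave 23 higher and 17 lower, and library totals gave 19 and 12.

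Over all genes, the lines differed widely. Of 14298 tested, 5826 passed the threshold, 2897 higher and 2929 lower in MDA-MB-231, and the median absolute log2 difference was 0.69. At 4-fold or more, 1546 were higher (10.8%) and 988 lower (6.91%). The even split changed with the scaling and the libraries: with library totals the median of all genes moved from -0.03 to 0.30 and 66.2% of the calls were higher in MDA-MB-231, against 49.7%, while the other scalings gave 53.9% to 55.9%, the fit without MDA-MB-231 replicate 1 gave 57.6% and the test against a 2-fold change 58.4%. Log2 values differed between replicates with an SD of 0.271 in MCF10A and 0.344 in MDA-MB-231, and between the lines with an SD of 1.42. Genes at 1 CPM or more in all 4 libraries, 10818 in number, held 1526 of the higher and 2174 of the lower calls, and among them 271 and 326 differed by 4-fold or more. With 2 libraries a side an exact permutation test of a single gene cannot go below p = 0.333, so every call rests on the spread shared across genes and libraries.

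**Figure D3:**
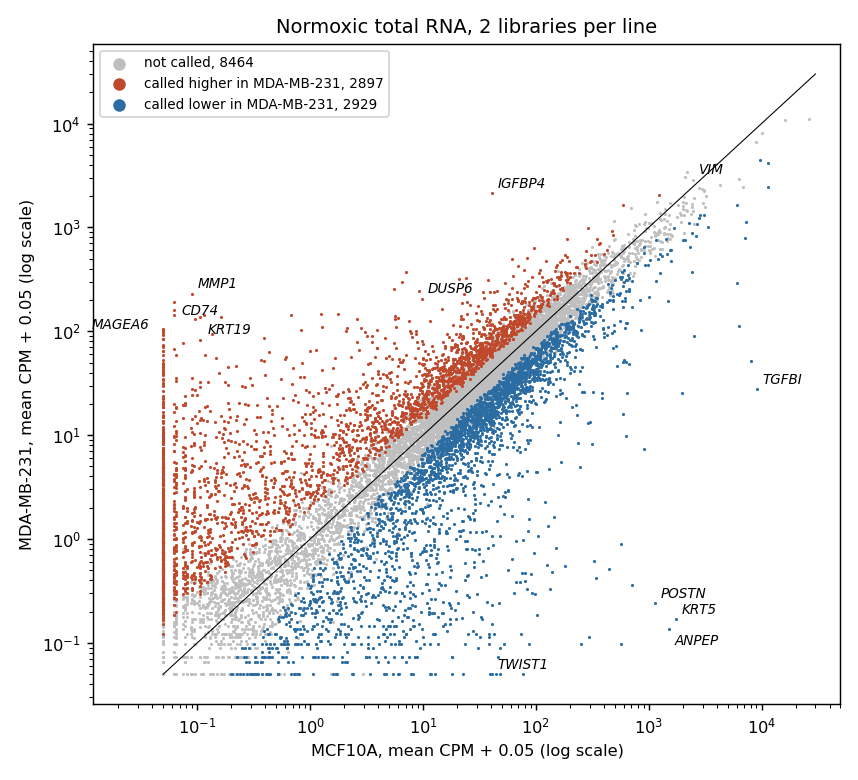
Mean level in MCF10A (x axis) against MDA-MB-231 (y axis), as CPM plus 0.05 on log axes, for the 14298 genes tested, with red for the 2897 genes higher and blue for the 2929 genes lower in MDA-MB-231 and grey for the rest. Genes near the left edge and the bottom edge are those at or near 0 in 1 line.

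Many of the largest differences were of genes absent from 1 line. A gene was counted as on at 1 CPM or more in both libraries of a line and as off under 0.1 CPM in both, which gave 524 genes on in 1 line and off in the other, 416 of them on in MDA-MB-231. At 0 counts as the limit for off, 235 were on in MDA-MB-231 alone and 24 in MCF10A alone. Of the 1546 genes higher by 4-fold, 520 had 0 counts in MCF10A and 396 stayed under 1 CPM in both MDA-MB-231 libraries, whereas of the 988 genes lower by 4-fold, 53 had 0 counts in MDA-MB-231. Leaving out MDA-MB-231 replicate 2 raised the total to 660, of which 216 were on in MCF10A alone, and leaving out MDA-MB-231 replicate 1 raised it to 661, of which 133 were. Without MCF10A replicate 1 or 2 the total was 566 or 560.

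Genes that reached a mean of 50 CPM in 1 line were ordered by the fitted difference, which at 0 counts depends on the prior count, so that no order is read from it. The first of them in favour of MDA-MB-231 had 0 counts in both MCF10A libraries. The lysosomal fucosidase FUCA2 (103.2 and 107.5 CPM in MDA-MB-231) was at least 2545-fold higher, the giant cadherin FAT3 (99.02 and 107.3 CPM) at least 2482-fold and the zinc finger gene ZNF22 (92.4 and 101.3 CPM) at least 2327-fold. EDIL3, an integrin-binding matrix protein, KISS1, the precursor of the kisspeptins, APBB1IP, an adaptor of RAP1, G0S2, an inhibitor of triglyceride breakdown, and CYBA, a subunit of the NADPH oxidase, were at least 1548-fold higher. Each of these genes was read in neither MCF10A replicate and at 59.5 CPM or more in both MDA-MB-231 replicates.

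In favour of MCF10A, ACKR1, an atypical chemokine receptor, was at 86.9 and 65.7 CPM against 0 counts (at least 1332-fold). ANPEP, a membrane aminopeptidase, stood at 1383, 1652, 0.125 and 0.0476 CPM (log2 difference -13.94). The cell adhesion gene CADM3 was at 524.1, 611.2, 0 and 0.0951 CPM, where 2 counts in MDA-MB-231 gave a ratio of 15200 (4208 to 125516). The complement component C3 (330.7, 266.2, 0.0311 and 0.0951 CPM), the adaptor STAC2 (71.8, 101.03, 0 and 0.0951 CPM), the DNA repair enzyme MGMT (55.01, 48.5, 0 and 0.0951 CPM) and the imprinted gene SNRPN (69.7, 78.3, 0 and 0.143 CPM) had 2 or 3 counts in MDA-MB-231, with ratios of 5227 (1788 to 25347), 2336 (646 to 19292), 1367 (378 to 11289) and 1319 (451 to 6396). FGF2, a growth factor, was at 497.3, 388.3, 0.311 and 0.618 CPM (-9.95). SNRPN shares exons with neighbouring transcripts, so its counts are uncertain.

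Genes at 5 CPM or more in all 4 libraries changed by less, but still by large amounts. FAM107B (6.37, 7.57, 429.0 and 315.8 CPM, log2 difference 5.74) and IGFBP4, which binds insulin-like growth factors (27.6, 54.8, 2446 and 1797 CPM, 5.69), led the genes higher in MDA-MB-231, with the protease inhibitor SPINT2 (5.55), the lipid receptor LPAR1 (4.65) and CYP1B1, an oestrogen-metabolising enzyme (4.73). IL11, an IL6-family cytokine, differed between the replicates, at 523.3 and 74.6 CPM in MDA-MB-231 against 6.77 and 6.05 CPM in MCF10A. Lower in MDA-MB-231 were TGFBI, KRT81, KRT7, the matrix protein FBLN1 (880.6, 922.9, 8.97 and 5.66 CPM, -6.94), the calcium-binding S100A2 (2084, 1852, 32.1 and 18.2 CPM, -6.29) and the tropomyosin TPM2 (673.1, 592.7, 11.2 and 8.23 CPM, -6.02).

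Junction genes differed in both directions. Of 26 adherens and tight junction genes, all tested, 10 were higher and 4 lower in MDA-MB-231, a median of 0.69. The claudin CLDN4 was at 0.0613, 0.0498, 7.66 and 7.51 CPM (log2 difference 7.01), occludin (OCLN) at 0.337, 0.224, 8.596 and 8.99 CPM (4.97), and the polarity gene PARD6B at 1.23, 1.17, 13.6 and 7.23 CPM. P-cadherin (CDH3) was lower, at 6.47, 4.38, 0.405 and 0.285 CPM, as were F11R (17.1, 21.02, 4.77 and 2.95 CPM) and PVRL4. Of 12 desmosome genes tested (16 listed), 2 were higher and 4 lower. The desmocollin DSC2 was read only in MDA-MB-231 (0, 0, 5.26 and 4.57 CPM, at least 121-fold), while the plaque proteins PPL, JUP (84.8, 83.1, 11.4 and 6.47 CPM), PKP3 and PERP were lower. The count of higher desmosome genes was 1 without MCF10A replicate 1 and 4 without MDA-MB-231 replicate 1.

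Hemidesmosomes anchor basal cells to laminin-332 below them. ITGB4 (log2 difference -3.88, SE 0.46) and FERMT1 (-1.65) were lower in MDA-MB-231. COL17A1, a hemidesmosomal collagen, was higher at 1.26, 1.15, 4.17 and 3.61 CPM (1.70). LAMB3 passed as lower and LAMA3 as higher, but both calls were lost in at least 1 fit that left out a library, so that the higher count was 1 without MCF10A replicate 2 or MDA-MB-231 replicate 1. ITGA6 (159.7, 161.5, 193.3 and 140.6 CPM), CD151, DST and PLEC did not pass the test. The median of the 10 genes was -0.31, and 0.02 with library totals.

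Epithelial regulators and surface proteases also divided, 4 higher and 7 lower of 18 tested (23 listed), with a median of 0.26 that was -0.04 without MDA-MB-231 replicate 2. EHF, an epithelial ETS factor, was at 0.0613, 0.0498, 40.9 and 23.7 CPM (log2 difference 9.11), AP1M2, which sorts proteins to the basolateral membrane, at 0.460, 0.673, 45.5 and 67.8 CPM (6.62), and SPINT2 at 5.76, 5.11, 265.2 and 242.9 CPM. SPINT1, the relative of SPINT2, moved the other way (42.6, 38.4, 1.402 and 0.618 CPM, -5.28), and so did OVOL2 and PRSS8. A further list of 35 joined genes of the cornified envelope, the barrier of stratified epithelia, with S100 and secretory-defence genes. Of these, 14 were tested, 9 lower and 1 higher, with a median of -2.68. SERPINB5 (maspin) was at 265.5, 237.1, 0 and 0.0951 CPM (ratio 6637, 1837 to 54812), and CSTA, SLPI and S100A2 were the other leading members, while SERPINB2 (0, 0, 3.58 and 5.37 CPM, at least 104.1-fold) was the higher one. SERPINB5, CSTA and SLPI had 1 or 2 counts in MDA-MB-231 and passed the filter on low counts through MCF10A. SERPINB2 had 0 counts in MCF10A and passed it through MDA-MB-231. The filter fixed the direction of such genes, so nothing is read from the count of this list.

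Integrins, the receptors that bind cells to the matrix, were lower for 10 and higher for 2 of 19 tested (26 listed), a median of -1.62. Over all genes tested, 20.5% were lower and 20.3% higher. The fibronectin receptor chain ITGA5 was at 561.0, 657.8, 55.6 and 50.1 CPM (log2 difference -3.53, SE 0.33), and ITGA10 at 30.3, 29.8, 6.198 and 2.66 CPM (-2.74). ITGB3, a beta chain of RGD-binding integrins, was at 7.54, 6.08, 2.02 and 1.62 CPM, with no overlap between lines and a log2 difference of -1.89 (SE 0.72, adjusted p = 0.0410). That call was lost in each of the 4 fits that left out a library and with library totals, and over 20 alternatives its adjusted p ran from 0.000271 to 0.216, past the threshold in 12. ITGB2 (12.2, 12.01, 26.1 and 25.02 CPM) and the collagen receptor ITGA2 (11.3, 9.61, 81.9 and 46.9 CPM) were higher. The count of 10 lower integrins became 5 without MCF10A replicate 2, without MDA-MB-231 replicate 2 or with library totals, and 6 without either other replicate, and the count of 2 higher became 1 without MCF10A replicate 2.

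Their ligands in the basement membrane were lower for 12 and higher for 5 of 23 tested (26 listed), a median of -0.997. The collagen IV chains COL4A6 (39.4, 35.3, 2.803 and 1.33 CPM), COL4A4 and COL4A1 (190.9, 133.4, 29.6 and 20.2 CPM) were lower. FRAS1 (0.215, 0.199, 12.99 and 12.4 CPM) and FREM2 (0, 0, 1.37 and 1.81 CPM, at least 37.4-fold), partners in a matrix complex of embryonic skin, were higher, with LAMA4. The higher count was 3 without MCF10A replicate 2.

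Proteases that cut the matrix and their inhibitors gave 10 higher and 11 lower of 31 tested (33 listed), a median of -0.64. The interstitial collagenase MMP1 was at 0.0306, 0.0498, 210.1 and 248.8 CPM, a ratio of 5468 (1871 to 26521) on 3 counts in MCF10A. MMP2, a gelatinase, was the reverse at 87.6, 81.2, 1.06 and 1.24 CPM (log2 difference -6.20), as were MMP17 and MMP28. TIMP4 (0, 0, 2.46 and 2.09 CPM, at least 56.2-fold) and SERPINB2, both protease inhibitors, were higher. MMP10 passed as higher at no more than 0.143 CPM, a call lost in at least 1 fit that left out a library.

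Ligands of the EGF receptor family were exchanged rather than raised or lowered together, 3 higher and 3 lower of 9 tested. TGFA was at 2.24, 2.74, 34.3 and 18.5 CPM (log2 difference 3.41), HBEGF at 8.15, 7.57, 85.7 and 91.6 CPM (3.49) and NRG1 at 25.9, 22.3, 86.5 and 69.1 CPM (1.69). AREG went from 296.9 and 220.2 to 29.1 and 22.3 CPM (-3.33), EPGN from 4.75 and 3.16 to 0.0311 and 0.0951 CPM, and BTC by a log2 difference of -1.88. EREG, NRG2 and EGF did not pass the test and NRG4 was too low for it. Of 29 receptor tyrosine kinases tested (35 listed), 10 were higher and 8 lower, a median of 0.26. Library totals gave 11 higher and 5 lower, a median of 0.6. MERTK (0.521, 0.274, 15.8 and 11.7 CPM, 5.12), KIT, FLT1 and NTRK2 led the higher ones, the last 3 at under 2 CPM, and FGFR3 (6.804, 4.78, 0.654 and 0.856 CPM), ERBB2, DDR1 and EPHB6 the lower ones.

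Below these receptors, the RAS-ERK pathway switches on its own inhibitors, among them the DUSP phosphatases and the Sprouty proteins, whose mRNA levels are used as a readout of the pathway. Of 22 such genes, all tested, 16 were higher and 0 lower in MDA-MB-231, a median log2 difference of 1.41 beside -0.03 over all genes. The shares over all genes tested were 20.3% higher and 20.5% lower. The phosphatase DUSP1 is not among the 22. It was listed with the cAMP-responsive genes and was called lower in MDA-MB-231. DUSP6, the ERK phosphatase, was at 9.84, 9.56, 229.0 and 181.7 CPM (4.40, SE 0.26, adjusted p = 4.55e-11). SPRY1 was at 0.153, 0.274, 34.5 and 23.5 CPM (7.04), the ETS factor ETV1 at 4.995, 4.86, 68.2 and 47.4 CPM (3.55) and IER3 at 62.5, 60.9, 506.6 and 480.9 CPM (3.00). DUSP6, SPRY1, ETV1 and IER3 were each several times higher in both MDA-MB-231 libraries than in either MCF10A library. EGF was added to the MCF10A medium alone, and its part in these values was not tested. In the 4-library fit 17 were higher and 1 lower.

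Cell-cycle genes were called about as often as all genes (40.7%). Of 36 tested (38 listed), 9 were higher, 4 lower and 23 did not pass, a median of 0.27. The cyclin CCND2 (0.0306, 0.0747, 0.561 and 1.05 CPM), the inhibitors CDKN2D (15.4, 13.8, 54.1 and 63.7 CPM, log2 difference 2.01) and CDKN2C (41.8, 40.7, 111.1 and 85.4 CPM, 1.25) and the checkpoint kinase BUB1 (1.26) were higher. The inhibitors CDKN1C (8.09, 6.48, 1.74 and 1.05 CPM, -2.36) and CDKN1A (187.3, 227.3, 66.6 and 77.6 CPM, -1.52), were lower, with CCNE1 and MCM6. The higher count was 17 with library totals, beside 3 lower, and 19 in the 4-library fit. CDKN2A and CDKN2B, neighbours on chromosome 9 named after their values were seen, were at 0 counts in all 4 libraries, and MTAP beside them was at 0.0306, 0.0249, 0 and 0.333 CPM. Of 16 genes of that neighbourhood, 11 were tested, of which ELAVL2, KLHL9 (25.5, 24.9, 0 and 0.809 CPM), FOCAD (18.8, 20.1, 2.77 and 3.33 CPM) and DMRTA1 were lower and MLLT3 higher, a median of -0.43 that was -2.81 without MDA-MB-231 replicate 2. The higher count was 2 without MDA-MB-231 replicate 1.

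Antigen presentation genes held calls in both directions, and the filter on low counts fixed some of the higher ones. MHC class I shows peptides from inside the cell on almost every cell type, while class II is usually confined to professional immune cells, where the factor CIITA turns on its genes and the invariant chain CD74 guides the complex. Of 25 genes tested (26 listed), 16 were higher and 2 lower, a median of 1.68, beside 20.3% higher and 20.5% lower over all genes tested. CD74 was at 0, 0.0249, 178.6 and 109.1 CPM, a ratio of 10996 (1973 to 434381) on 1 count in MCF10A. HLA-DRA was at 0, 0, 25.7 and 14.5 CPM (at least 516-fold), HLA-DRB1 at 0, 0, 9.001 and 5.42 CPM (at least 184-fold) and HLA-DMB at 0, 0.0249, 8.69 and 5.33 CPM (ratio 536, 95.6 to 21207). Both MDA-MB-231 libraries thus read class II genes that were at 0 or 1 count in MCF10A. CIITA itself (0.644, 0.423, 8.25 and 5.56 CPM, log2 difference 3.70) and HLA-DMA (1.01, 0.897, 19.5 and 12.1 CPM, 4.05), both named after their values were seen, were higher as well. By class, 8 of 9 tested class II genes, 3 of 7 class I genes and 5 of 9 processing genes were higher. Lower were 2 class I genes and 0 of the other classes. CD74, HLA-DRA, HLA-DRB1, HLA-DMB and HLA-DPB1 had 0 or 1 count in MCF10A and passed the filter on low counts through MDA-MB-231. The filter fixed their direction, so nothing is read from the class II count. Nor is anything read from the 16 higher genes or the list's median, which include these genes. HLA-F, a non-classical class I gene, was lower (13.8, 12.98, 0.685 and 0.428 CPM, -4.54). HLA-C was the other lower gene, and its call was lost in every fit that left out a library. HLA genes vary between people and share sequence, so that their counts depend on how well each line's alleles matched the reference.

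The promoters of 3 of these class II genes, all on chromosome 6 and called higher in MDA-MB-231, are printed because they are the ones, of the 8 class II genes that have a window, that hold the word CTGATGATG. Each window runs from 250 bases before to 50 bases after the start of the gene in RefSeq (GRCh38.p14), 5′ to 3′ on the gene's strand. Capitals mark CTGATGATG and the CCAAT box, ATTGG or CCAAT, on either strand, with no overlap between them.
HLA-DRB1 (6, 32589799 to 32590098, minus strand): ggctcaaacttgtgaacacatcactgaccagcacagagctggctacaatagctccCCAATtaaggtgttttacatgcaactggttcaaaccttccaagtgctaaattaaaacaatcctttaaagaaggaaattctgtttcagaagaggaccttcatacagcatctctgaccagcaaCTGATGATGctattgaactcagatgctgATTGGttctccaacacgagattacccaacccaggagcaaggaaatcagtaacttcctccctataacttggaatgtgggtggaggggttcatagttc
HLA-DMB (6, 32940979 to 32941278, minus strand): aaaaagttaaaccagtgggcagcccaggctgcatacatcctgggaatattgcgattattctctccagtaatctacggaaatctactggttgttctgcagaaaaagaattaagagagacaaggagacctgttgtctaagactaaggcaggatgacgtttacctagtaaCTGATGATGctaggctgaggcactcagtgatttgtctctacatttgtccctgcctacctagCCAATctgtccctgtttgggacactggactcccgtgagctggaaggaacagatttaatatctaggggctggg
HLA-DMA (6, 32953048 to 32953347, minus strand): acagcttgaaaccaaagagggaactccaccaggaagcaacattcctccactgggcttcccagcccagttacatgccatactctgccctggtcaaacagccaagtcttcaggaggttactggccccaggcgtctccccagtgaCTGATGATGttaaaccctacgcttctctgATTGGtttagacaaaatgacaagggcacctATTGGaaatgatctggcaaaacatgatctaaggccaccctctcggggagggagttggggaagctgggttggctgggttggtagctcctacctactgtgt
The first of these words was picked after these promoters were seen. It stands in 95 of 35116 promoter windows (0.271%), on either strand, and in 3 of the 8 class II genes that have a window. ATTGG stands in 12155 windows (34.6%) and in 7 of the 8. A match describes the letters only, and no binding was measured.

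**Figure D4:**
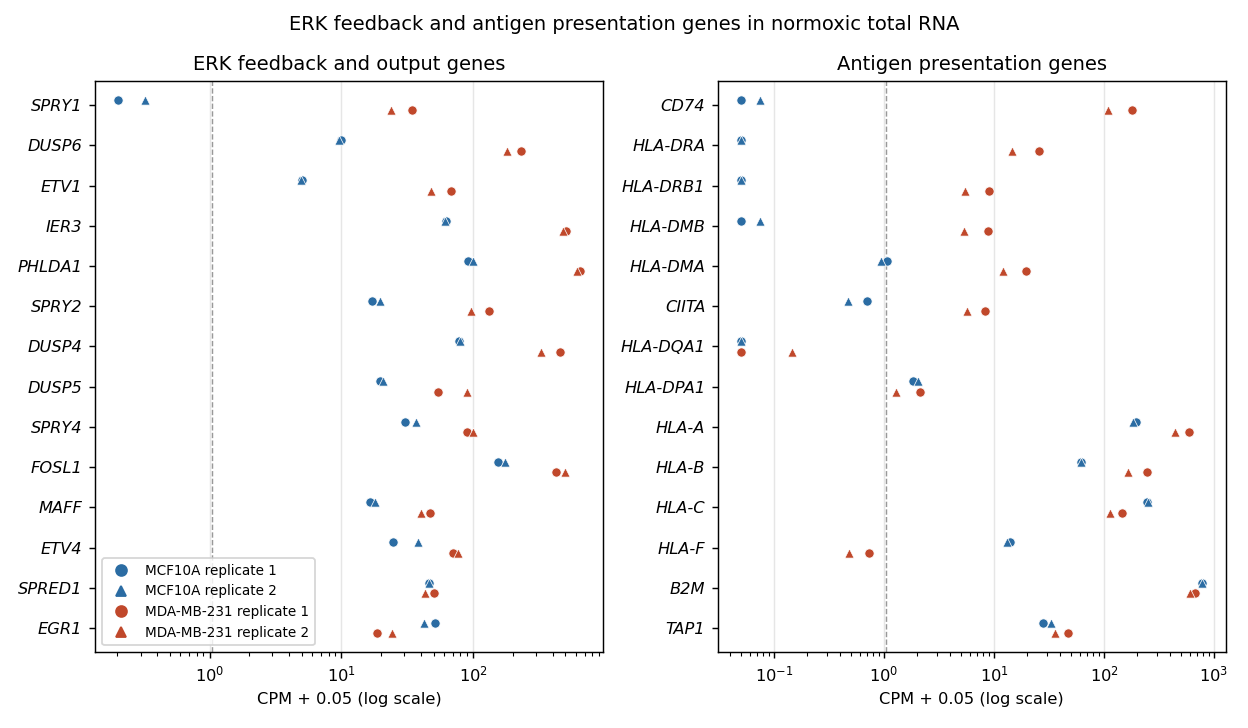
Level in the 4 libraries, as CPM plus 0.05 on a log axis, of the ERK feedback genes and of the antigen presentation genes, with 1 point per library coloured by line. DUSP6 and SPRY1 are higher in both MDA-MB-231 libraries, and CD74, HLA-DRA, HLA-DRB1 and HLA-DMB lie at the bottom of the axis in MCF10A and up to 178.6 CPM in MDA-MB-231.

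Interferon-stimulated genes, an overlapping antiviral programme, were higher for 20 and lower for 3 of 34 tested (35 listed), a median of 1.46. The shares over all genes tested were 20.3% higher and 20.5% lower. Of the 35, 6 were at 1 CPM or more in both MDA-MB-231 libraries and in neither MCF10A library. XAF1, at 0 counts in MCF10A, passed the filter on low counts through MDA-MB-231, which fixed its direction. XAF1 was at 0, 0, 2.12 and 2.81 CPM (at least 58.0-fold), the ISG15 ligase HERC5 at 0.184, 0.299, 38.4 and 32.8 CPM (log2 difference 7.16, SE 0.41), OAS2, which makes the activator of RNase L, at 0.123, 0.224, 12.9 and 8.99 CPM (5.92) and IFIT2 at 0.797, 0.648, 28.7 and 12.4 CPM (4.84). Not all members moved this way, since IFI44L (25.9, 18.8, 1.21 and 1.14 CPM, -4.24), the ISG15 protease USP18 (9.07, 11.7, 1.15 and 1.62 CPM, -2.91) and IFITM2 (209.0, 227.2, 41.9 and 40.7 CPM, -2.40) were lower. Among cytokines and chemokines, 11 were higher and 7 lower of 22 tested (29 listed), a median of 1.62. IL24 (0.276, 0.299, 25.1 and 14.03 CPM, 6.07), CCL28, CSF2 and CCL2 were higher, CCL2 at no more than 0.380 CPM. The neutrophil growth factor CSF3 (70.03, 75.1, 0.529 and 0.143 CPM, -7.63), CCL20 (17.96, 14.3, 0.0623 and 0.0951 CPM, -7.67), CXCL16 and IL18 (285.8, 244.4, 25.7 and 26.7 CPM, -3.34) were lower.

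Cancer-testis genes are silent in most adult tissues outside the testis and often return in tumours. Of 42 in the files (43 listed), 16 were tested and 13 were higher in MDA-MB-231, all with 0 counts in both MCF10A libraries, and 0 were lower. The 26 others were too low to test, among them ACTL8, named after its values were seen, with 7 and 5 counts in MCF10A and 0 in MDA-MB-231. MAGEA6 was at 90.7 and 110.3 CPM in MDA-MB-231 (at least 2389-fold), MAGEA3 at 66.0 and 74.0 CPM (at least 1678-fold), XAGE1A at 78.3 and 64.4 CPM (at least 1767-fold) and MAGEA12 at 23.5 and 23.9 CPM (at least 574-fold). The 13 passed the filter on low counts through MDA-MB-231 alone, so that their direction was fixed by it and nothing is read from the count. IGF2BP1, IGF2BP3 (31.2, 26.9, 63.2 and 52.8 CPM) and MAGEA2 did not pass the test, and TEX15 rested on MDA-MB-231 replicate 2 (2.38 CPM against 0.0311 in the other). Without MCF10A replicate 2 there was 1 lower call.

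The promoter of MAGEA3 is shown because it is shared: the 300-base window of MAGEA6 (X, 152769640 to 152769939) is identical to it at all 300 bases, and reads of the transcripts were divided by an estimate. Capitals mark each CG, the dinucleotide that DNA methylation acts on, of which the window holds 19 against a median of 14 (quartiles 4 and 28) over all promoter windows. Methylation was not measured here.
MAGEA3 (X, 152698544 to 152698843, plus strand): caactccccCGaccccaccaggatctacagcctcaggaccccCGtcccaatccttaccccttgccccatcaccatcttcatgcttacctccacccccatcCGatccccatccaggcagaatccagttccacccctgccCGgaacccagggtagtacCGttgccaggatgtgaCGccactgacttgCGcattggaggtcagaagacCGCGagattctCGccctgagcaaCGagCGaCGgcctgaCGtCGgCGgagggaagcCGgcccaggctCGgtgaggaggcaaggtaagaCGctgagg

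HOX genes differed in both directions between the lines. They lie in 4 clusters and keep a record of position along the body axis. Of 39, 27 were tested, 7 higher and 16 lower in MDA-MB-231, a median of -3.72. In the HOXA cluster 7 of 8 tested were lower and 1 higher, in HOXC 6 of 8 were lower and 0 higher, in HOXB 3 of 8 were lower and 3 higher, and in HOXD all 3 tested were higher. HOXA9 was at 7.72, 7.67, 0 and 0 CPM (at least 136-fold lower), HOXC13 at 38.03, 59.01, 0.0311 and 0.0476 CPM (ratio 1318, 365 to 10885) and HOXA4 at 2.298, 2.37, 0 and 0 CPM (at least 41.4-fold lower). HOXB9 was at 0, 0.0498, 18.3 and 20.5 CPM (ratio 696, 192 to 5753), HOXD4 at 0, 0, 2.62 and 3.14 CPM (at least 68.5-fold) and HOXD3 at 0, 0, 1.15 and 1.902 CPM (at least 35.2-fold). HOXD1, HOXD3 and HOXD4 had 0 or 1 count in MCF10A and passed the filter on low counts through MDA-MB-231. HOXA4, HOXA9, HOXC11 and HOXC13 had 0 to 3 counts in MDA-MB-231 and passed it through MCF10A. The filter fixed the direction of such genes, so nothing is read from the counts per cluster.

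TGF-beta and BMP genes showed opposed members within a family. Of 39 tested (41 listed), 14 were higher and 13 lower, a median of -0.16 that became 0.18 with library totals. The ID proteins, inhibitors of basic helix-loop-helix factors, split: ID1 (571.6, 612.0, 20.7 and 10.7 CPM, log2 difference -5.23), ID2 (27.98, 29.6, 0.623 and 0.856 CPM, -5.30) and ID3 (251.1, 331.4, 11.9 and 14.3 CPM, -4.48) were lower, and ID4 (0, 0, 11.9 and 8.94 CPM, at least 260-fold) was higher. The activin subunits INHBB (0.0613, 0.0498, 32.9 and 25.6 CPM, 8.96) and INHBA and their antagonist FST (1.13, 1.32, 115.1 and 104.7 CPM, 6.48) were higher together. The ligand TGFB1 was at 147.6, 191.6, 92.3 and 89.7 CPM (-0.90, SE 0.28, adjusted p = 0.0144), a call that held without MCF10A replicate 1 and was lost without any other library, and over 20 alternatives its adjusted p ran from 0.00104 to 0.907.

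Hydrocortisone was in the MCF10A medium alone, and genes that glucocorticoids induce were lower in MDA-MB-231 for 13 and higher for 5 of 24, a median of -1.84. For this list and the next, the shares over all genes tested were 20.5% lower and 20.3% higher. FKBP5, a chaperone of the glucocorticoid receptor, was at 686.2, 654.6, 46.3 and 51.03 CPM (log2 difference -3.78, SE 0.35, adjusted p = 2.10e-08), ANGPTL4, a lipase inhibitor, at 195.1, 278.1, 8.098 and 8.56 CPM (-4.83), ZBTB16 at 9.81, 7.65, 0 and 0.0476 CPM (ratio 458, 81.9 to 18109) and TFCP2L1 at 17.4, 17.98, 0.374 and 0.523 CPM (-5.32). IGFBP1, also used as a marker of glucocorticoid action, was at 0, 0, 55.2 and 35.8 CPM (at least 1153-fold higher), GPX3 at 0, 0.0498, 77.8 and 75.6 CPM (ratio 2799, 774.4 to 23121) and PDK4 at 0.0613, 0.0996, 1.15 and 0.618 CPM. The higher count was 3 without either MCF10A replicate. Cholera toxin, which raises cAMP, was also in that medium alone, and of 21 cAMP-responsive genes tested (22 listed) 12 were higher and 4 lower in MDA-MB-231, a median of 1.58. Of the 22, 7 were at 1 CPM or more in both MDA-MB-231 libraries and in neither MCF10A library. PDE3B and PPARGC1A, at 0 and 3 counts in MCF10A, passed the filter on low counts through MDA-MB-231. That fixed the direction of such genes, so nothing is read from this count. PDE3B (0, 0, 5.61 and 6.09 CPM, at least 141-fold), PDE4A (0.123, 0.0249, 26.8 and 38.2 CPM, 8.80), PPARGC1A and INHBA led the higher ones, and DUSP1 (560.6, 621.4, 75.2 and 24.9 CPM, -3.56), also a glucocorticoid target, and PER1 the lower ones. The lower count was 2 without MCF10A replicate 1 or either MDA-MB-231 replicate. The part of the medium in these differences was not tested.

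Sterol synthesis genes mostly did not pass the test, 21 of 28, with 4 higher, 3 lower and a median of 0.35. Among the higher ones were INSIG1, which holds back sterol synthesis when sterols are plentiful (26.8, 28.6, 102.3 and 107.6 CPM, log2 difference 1.92), and the enzyme SC5D (1.14). EBP, SQLE and PMVK, enzymes of the pathway, were the lower ones, of which EBP (100.7, 93.3, 38.03 and 42.2 CPM, -1.27) kept its call in each fit that left out a library. The higher count was 10 with library totals and 14 in the 4-library fit, and the lower count 1 without MDA-MB-231 replicate 1.

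Glycolysis genes gave 5 higher and 5 lower of 22 tested (23 listed), a median of -0.57. The lactate and pyruvate carrier SLC16A1 was at 157.3, 146.8, 0.405 and 1.14 CPM (log2 difference -7.69, SE 0.57, adjusted p = 7.51e-10), while SLC16A3, the exporter of the same family, was at 1121, 1186, 312.2 and 299.3 CPM (-1.92). The glucose transporters SLC2A1 (66.6, 72.9, 548.4 and 300.0 CPM, 2.60) and SLC2A3 (3.800, 3.66, 16.8 and 12.2 CPM, 1.96) and hexokinase 2 (HK2; 15.8, 15.3, 69.2 and 70.2 CPM, 2.16) were higher, and ALDOC (28.5, 27.6, 2.02 and 0.999 CPM) was lower. The higher count was 3 without MCF10A replicate 2 or MDA-MB-231 replicate 1, and the lower count 3 without MCF10A replicate 2, without either MDA-MB-231 replicate or with library totals, and 13 in the 4-library fit. Amino acid and one-carbon genes gave 6 higher and 9 lower of 26, with a median of -0.03 that was positive with the other scalings and 0.31 with library totals, which gave 11 higher and 7 lower. The 4-library fit gave 10 each way. CBS, which starts transsulphuration, was at 5.73, 4.93, 0 and 0 CPM (at least 93.7-fold lower), whereas CTH, the next enzyme of that path, was at 1.38, 1.25, 32.5 and 23.8 CPM (4.42) and the cystine importer SLC7A11 at 7.36, 3.81, 148.7 and 114.9 CPM (4.56). PHGDH, the first enzyme of serine synthesis, was at 104.1, 109.97, 11.8 and 12.1 CPM (-3.16), and glutamine synthetase GLUL at 251.5, 230.1, 30.7 and 31.6 CPM (-2.95), with GLS2 also lower and ASNS and SLC1A5 higher.

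Genes that low oxygen induces were read here without low oxygen, and 14 were lower and 4 higher in MDA-MB-231 of 28 tested, a median of -0.75. The shares over all genes tested were 20.5% lower and 20.3% higher. STC2 was at 95.6, 112.7, 0.934 and 1.09 CPM (log2 difference -6.69), the carbonic anhydrase CA9 at 12.2, 10.2, 0.498 and 0.0476 CPM (-5.17, SE 0.70, adjusted p = 3.71e-06) and the mTORC1 inhibitor DDIT4 at 532.1, 738.5, 78.7 and 22.4 CPM (-3.65), with ANGPTL4. EGLN3, an oxygen sensor, was at 0.215, 0.423, 4.39 and 4.85 CPM (3.81) and VEGFA at 41.9, 36.6, 260.9 and 217.4 CPM (2.61), both higher, with SLC2A1 and BNIP3L. CA9 and DDIT4 differed several-fold between the MDA-MB-231 replicates but overlapped with MCF10A in neither. The log2 difference of CA9 was -7.79 without MDA-MB-231 replicate 1 and -4.48 without MDA-MB-231 replicate 2. The lower count was 9 with library totals.

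**Figure D5:**
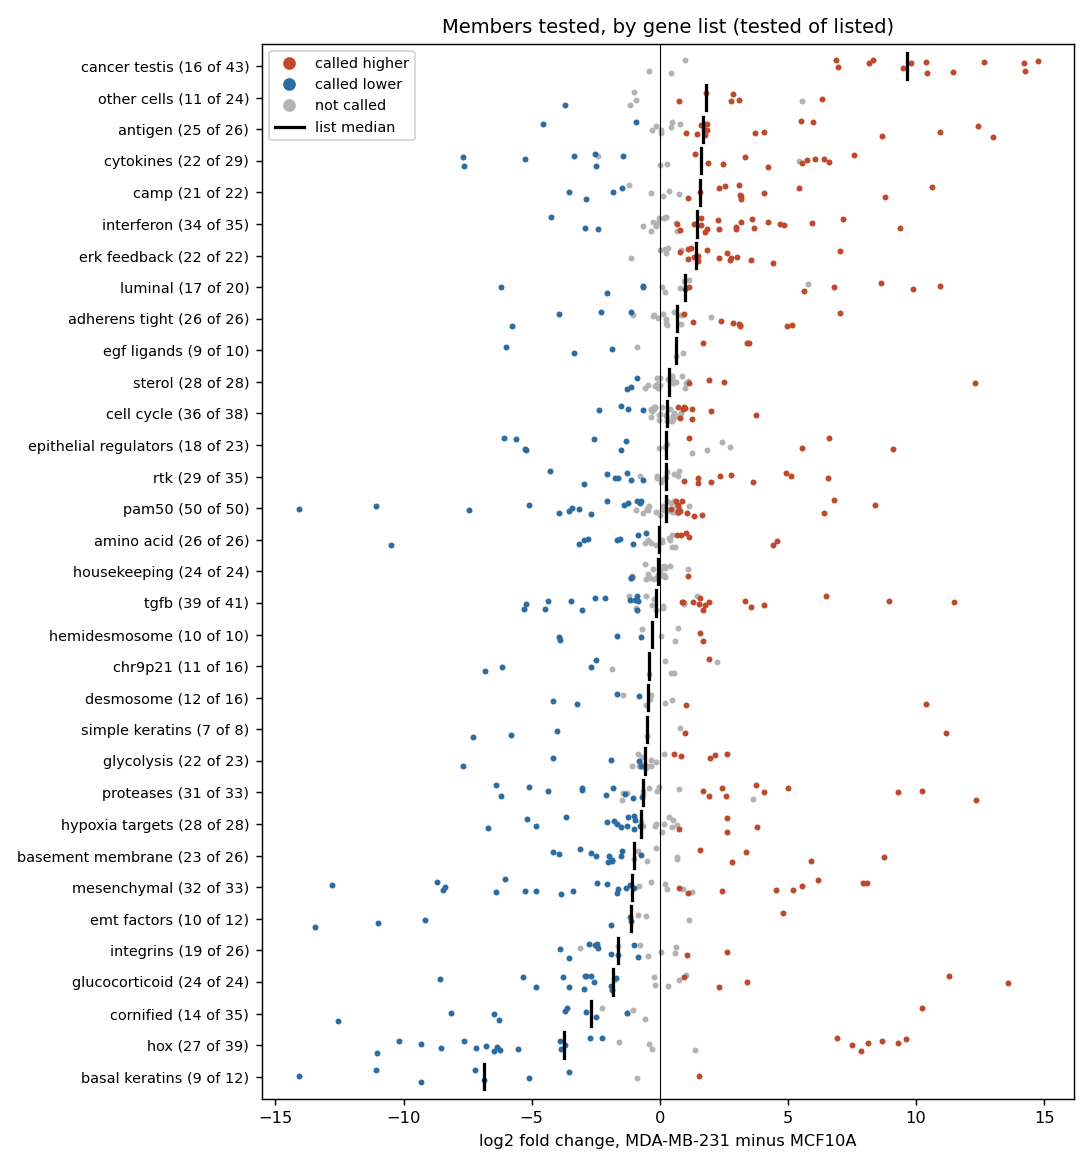
Log2 difference (MDA-MB-231 minus MCF10A) of each tested member of the gene lists of protein-coding genes described, with 1 row per list, points coloured by call and a black bar at the list's median. The cancer-testis list, whose called members passed the filter through MDA-MB-231 alone, lies furthest to the right. The basal and stratified keratins and the HOX genes lie furthest to the left, beside a median of -0.03 over all genes. Both of these lists hold members that passed the filter through MCF10A.

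Long noncoding transcripts were fitted together with all gene classes (18670 tested, 7014 called). Of 22 listed, 21 were in the files, and 4 of the miRNA hosts among them, those called lower in MDA-MB-231, are given first, a choice made after their values were seen. The host transcript of miR-205, MIR205HG, was at 41.5, 33.4, 0 and 0.143 CPM (log2 difference -9.24, adjusted p = 1.93e-07, ratio 656, 224 to 3182, on 3 counts in MDA-MB-231), and that of miR-31, MIR31HG, at 1.44, 1.05, 0 and 0 CPM. MIR210HG was at 15.5, 11.5, 1.34 and 0.856 CPM (adjusted p = 1.80e-06) and MIR22HG at 95.3, 77.3, 30.7 and 30.2 CPM (-1.50, adjusted p = 6.89e-05). Also lower in MDA-MB-231 were H19 (34.1, 57.6, 0.0623 and 0.190 CPM, -8.59), HOTAIR (3.43, 2.62, 0.0311 and 0 CPM), LINC01133, UCA1 and NEAT1 (1238, 658.2, 256.3 and 149.6 CPM, adjusted p = 0.00906). GAS5, LINC00152, PVT1, SNHG1 and MALAT1 did not pass the test, and neither did the miRNA hosts MIR100HG (log2 difference 0.18), DLEU2 (0.74) and MIR17HG (0.31). HOTTIP, MEG3, TINCR and the host MIR155HG were too low for it.

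The mature miRNAs that lie within those 4 host genes are printed with the seed, bases 2 to 8, in capitals (RefSeq, GRCh38.p14). They share no seed, and the values above are of the long host transcripts, since the small RNAs were not measured.
hsa-miR-205-5p (1, 209432166 to 209432187, plus strand): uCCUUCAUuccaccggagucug
hsa-miR-31-5p (9, 21512158 to 21512178, minus strand): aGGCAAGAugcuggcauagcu
hsa-miR-210-3p (11, 568112 to 568133, minus strand): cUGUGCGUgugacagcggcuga
hsa-miR-22-3p (17, 1713914 to 1713935, minus strand): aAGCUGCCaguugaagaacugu

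Levels between genes were compared per kilobase of exon. The highest in both lines were mitochondrial transcripts, led by MT-CO1 in MCF10A (17148 CPM per kb, against 7105 in MDA-MB-231) and by MT-CO3 in MDA-MB-231 (8410, against 11333). The 8 highest of each line also held MT-CO2, MT-ND4, MT-ATP6 and the ribosomal protein gene model AC090498.1 in both, MT-CYB and the metallothionein MT2A in MCF10A, and MT-ND2 and MT-ATP8 in MDA-MB-231. MT2A, which binds zinc and copper, was at 7982 and 1240 CPM per kb and passed the test (log2 difference -2.69, adjusted p = 0.00120), and MT-CO2 passed too (adjusted p = 0.0131), although that call was lost in some fits. The share of counts from mitochondrial genes was 7.94% and 6.27% in the MCF10A libraries, against 4.88% and 5.50% in those of MDA-MB-231.

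Reference genes, often used to scale expression, were read in both lines. Of 24 housekeeping genes, 20 did not pass, 3 were lower and 1 was higher in MDA-MB-231, a median of -0.07 that became 0.27 with library totals. ACTB was at 9645, 9528, 4284 and 4557 CPM (log2 difference -1.12, adjusted p = 0.00324) and ALAS1, of haem synthesis, at 32.2, 31.96, 65.9 and 70.8 CPM (1.09). RPL13A and RPL30 were the other lower genes, and the lower count was 1 in each fit that left out a library. Library totals gave 6 higher.

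Markers of other cell types, from blood, vessels, muscle, nerve, fat, liver and pancreas, were near the floor. Of 24, 19 were under 1 CPM in all 4 libraries and ADIPOQ, EMCN and CDH5 were among those at 0 counts in all 4. Their summed level was 48.5, 53.4, 83.5 and 79.9 CPM, of which the lysosomal CD68, made by many cell types, was 41.6, 48.05, 77.5 and 71.7 CPM. Of 11 tested, 6 were higher and 1 lower in MDA-MB-231, a median of 1.82, but 3 were higher and the median was 0.40 without MDA-MB-231 replicate 2, and 3 were higher without either MCF10A replicate. The lower one, DES, lost its call without MCF10A replicate 2 or MDA-MB-231 replicate 1. The leukocyte marker PTPRC was at 0.0919, 0.0747, 0.529 and 0.951 CPM and CD3E and ITGAM were read only in MDA-MB-231 replicate 2, at no more than 0.238 CPM. Their part in the antigen presentation values was not tested.

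The same genes were then read in the polysomal libraries of the normoxic controls. These 4 further libraries may come from the same cultures, and they share the line, the medium and the sequencing set. Their sample titles carry the same numbers as those of the total mRNA libraries. The main fit took both fractions as separate samples. There 6485 genes (45.4%) passed the threshold. Of the 5826 genes called in total mRNA, 5806 differed in the same direction on polysomes and 5092 (87.4%) were called in that direction, with 1 called in the opposite one. Of the 2534 genes at 4-fold or more, 2373 (93.6%) were called the same way. KRT19 had a log2 difference of 11.51 on polysomes, DUSP6 of 4.71 and TGFBI of -8.05, beside 11.18, 4.40 and -8.38 in total mRNA.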

How the data were processed

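RNA was sequenced from poly(A)-selected TruSeq libraries. The deposited values are expected counts per gene, which the authors made with STAR and RSEM against GENCODE genes, not normalised and written as whole numbers. The study's methods name GRCh38 and the labels GRCh37. Gene identifiers in the files belong to GRCh38 annotations, whose coordinates are used here. RSEM shares reads among near-identical genes, and strand was not stated.

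Protein-coding genes (19815 of 60554 in the files) were filtered by edgeR's filterByExpr, scaled by TMM and fitted by quasi-likelihood over all 32 libraries in 16 groups (R 4.3.3, edgeR 4.0.16), with 16 residual degrees of freedom, Benjamini-Hochberg adjustment over all genes tested and a threshold of 0.05. Fold changes are MDA-MB-231 minus MCF10A. The biological coefficient of variation was 0.325 over the MCF10A and 0.151 over the MDA-MB-231 libraries. Replicates are labelled biological, and nothing says that they came from separate cultures, so p-values measure the spread between these samples, which may be technical. Ratios of lines with 1 to 3 counts have 95% counting intervals, and those with 0 counts a bound from 3 counts over the line; both cover counting error only. A line at 0 counts makes a fitted fold depend on the prior count.

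Genes were named by rule: the 12 largest called differences each way with a mean of 50 CPM in the higher line and no overlap, the 6 largest each way at 5 CPM or more in all 4 libraries, the 8 highest per kilobase in each line, all members of lists up to 12 genes, the 4 largest called members each way of longer lists, and genes singled out by the study or defining triple-negative tumours. The samples and the 35 gene lists (867 different genes in the files) were chosen with earlier results of these data known, and no set test was run. Some genes that these rules name, and 1 of the lists, are not reported here. Alternatives covered scaling, filters, thresholds, tools (DESeq2 1.42.0, limma 3.58.1), the libraries fitted, thinning and leaving out each replicate. Sequences are from RefSeq (GRCh38.p14).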

Additional observations from a re-analysis of the deposited data

How the results depend on the processing

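Of 1104 values for 57 genes (those named for the size of their difference or their level, by the study, or as receptors or epithelial markers) under 20 alternatives, 1062 kept their direction and their side of the threshold, 19 gained and 19 lost it, the losses being 5 of MT-CO2, 8 of ITGB3 and 6 of TGFB1. The 4 reversals were of genes that were not called: ESR1 (1.13 on the log2 scale) ran from -0.23, without MDA-MB-231 replicate 1, to 2.17 over the fits that left out a library, and MT-ATP6 (0.0445) from -0.22, without MCF10A replicate 2, to 0.35, with -0.21 without MDA-MB-231 replicate 2 and -0.18 without the 3 libraries with the most detected genes. The balance of calls turned from 2897 higher and 2929 lower to 3376 and 2701 in DESeq2 and 3879 and 1981 with library totals. Leaving out each replicate in turn gave 4309 to 4866 called genes (2147 to 2805 higher, 2061 to 2330 lower in MDA-MB-231), 2326 to 2809 at 4-fold or more (1385 to 1926 higher, 883 to 990 lower) and 4606 to 6469 on polysomes, and genes on in 1 line alone ranged from 113 to 216 in MCF10A and from 443 to 528 in MDA-MB-231. Restricting the test to genes at 1 CPM or more in all 4 libraries gave 3445 calls (1621 higher, 1824 lower), 603 of them at 4-fold (296 and 307), since fewer genes were tested. A test against a 2-fold change gave 2752 (1608 and 1144), and a limit of 2-fold in place of 4-fold gave 4420, 2117 of them lower. The fit without the 3 libraries with the most detected genes, added after the data were seen, gave 1843 lower genes. Genes on in 1 line alone numbered 53 in MCF10A and 172 in MDA-MB-231 at 5 CPM, and 24 and 235 with off set at 0 counts. DESeq2 called 6077 and the fit to 4 libraries 8349. The fit to the 16 total RNA libraries, without the polysomal ones, called 5115 (2761 higher, 2354 lower). A replicate block over both lines called 5933 (2945 higher, 2988 lower) and a block within each line and fraction 7231 (3420 and 3811); deviations of same-numbered normoxic control libraries correlated between the lines at 0.053 in total and 0.286 in polysomal RNA (lowest over all conditions and fractions -0.0365), so not every pair passed 0.1 and the numbers were taken as not pairing the lines. Of 1254 list counts, 152 moved by more than 1.5 times. The causes of these changes were not tested. Depth limits genes under about 0.143 CPM, where MDA-MB-231 replicate 2 had 3 counts.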

Other observations

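Genes that differed were spread unevenly over the chromosomes. On chromosome 6 the median log2 difference was 0.41 and 33.6% of 757 tested genes were higher in MDA-MB-231, and on the X chromosome 30.2% of 514 were higher. On chromosome 22 the median was -0.62 and 40.4% of 324 genes were lower, and on chromosome 17 it was -0.48 with 33.7% of 879 lower. Among 13779 runs of 20 neighbouring tested genes, the highest median, 2.12, lay on the X chromosome from TRMT2B to BHLHB9 (101009346 to 102753540, GRCh38), where 15 genes were higher and 1 lower. A run on chromosome 5 from PCDHB2 to PCDHGB3, within the clustered protocadherins, held 11 higher and 0 lower, and a run on chromosome 6 from PPT2 to HLA-DMB held 13 higher and 0 lower. The lowest median, -1.68, lay on chromosome 17 from KRT10 to FKBP10, a stretch that holds the acidic keratins, where 6 genes were higher and 8 lower, and a run on chromosome 1 from ADAR to THBS3 held 0 higher and 13 lower. Neighbouring runs share genes, and DNA copy number was not measured here.

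Processed pseudogenes, copies of spliced mRNAs in the genome, had a count in 2589 genes of MDA-MB-231 replicate 2, against 1759 in replicate 1 and 1746 and 1809 in MCF10A, while long intergenic noncoding genes with a count numbered 1778, 1801, 1726 and 1726 in the same order.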
